A study of Mus musculus with 6 samples.

Results

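The regulators of the integrated stress response were followed in RNA-Seq data of mouse primary mesangial cells, which lie between the capillaries of the glomerulus, support them and can contract. The members are the rows of the deposited expression table whose symbol is Atf4, Ddit3, Atf5, Atf3, Cebpb, Trib3, Sesn2, Ddit4, Chac1 or Nupr1. Each of the 10 genes had 1 row among the 19730 rows of the table. The rule uses their names and no measured value, but the list was chosen with earlier results of these data known. The 3 Control libraries were compared with 3 libraries from cells given TGF-β1 (10 ng/ml, 72 h) to see which of these genes change with the treatment. TGF-β1 is a secreted cytokine that drives fibrosis of the kidney. Both groups were cultured in 25.5 mM glucose with 20% serum and used at passages 3 to 6, so the Control cells were also in high glucose. The sources used here give neither the strain of the mice nor what the Control cells received in place of TGF-β1, and they do not say whether the 3 samples of a group came from separate cultures, so the p-values measure the spread between these samples, which may be technical.

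The integrated stress response is a pathway by which cells slow protein synthesis when the endoplasmic reticulum is overloaded, amino acids run short, heme is lacking or viral RNA is present. Different kinases sense these conditions and phosphorylate the translation factor eIF2α, after which most mRNAs are translated less while the mRNA of the transcription factor ATF4 is translated more, because of short open reading frames upstream of its coding sequence. ATF4 then acts with partners of the basic leucine zipper (bZIP) family on genes for amino acid supply, redox balance, feedback and, when stress lasts, cell death. ATF4 is controlled to a large degree at translation, so an mRNA level describes a single layer of the pathway.

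All values are FPKM, the fragments of a transcript per kilobase of its length and per M (mega) of mapped fragments, so levels of different genes can be set side by side per length. Changes were tested with limma on log2(FPKM + 1) over the 11898 rows whose mean FPKM reached 1, and a gene was called changed at a Benjamini-Hochberg adjusted p under 0.05 over these rows. This scale understates the change of genes near 1 FPKM. The mean for the filter is over all 6 libraries, so a gene under 1 FPKM in Control can be tested through its TGF-β1 libraries. Low values were whole multiples of 1 fragment and gave 10.1 to 11 M fragments per library, so that an FPKM of 1 in a transcript of 2000 nt rests on 18.3 to 20 fragments. Pearson's r of log2(FPKM + 1) was 0.876 to 0.940 between libraries of a group and 0.818 to 0.853 between groups. The libraries numbered 2 were the lowest of both groups in Atf4, Atf5, Cebpb and Ddit4. Values without them are given beside these genes and wherever they end the call of a regulator.

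Of the 10 regulators, 9 were higher with TGF-β1, 0 were lower and 1, Cebpb, was not called. Among all tested rows 48.1% were called in either direction and 24.5% were called higher. In 9 of the 10 genes every TGF-β1 library was above every Control library, which held for 29.9% of all tested rows. The median log2 change of the 10 genes was 1.63, against -0.02 over all tested rows. The rise was at least 1 on the log2 scale in 6 genes (Trib3, Chac1, Nupr1, Atf5, Ddit4 and Atf4) and less in 3 (Atf3, Ddit3 and Sesn2). With both libraries numbered 2 left out, 7 of the 10 were called higher. In bulk RNA, fewer cells of a type and less RNA per cell cannot be told apart, and this holds for every level below.

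**Figure D1:**
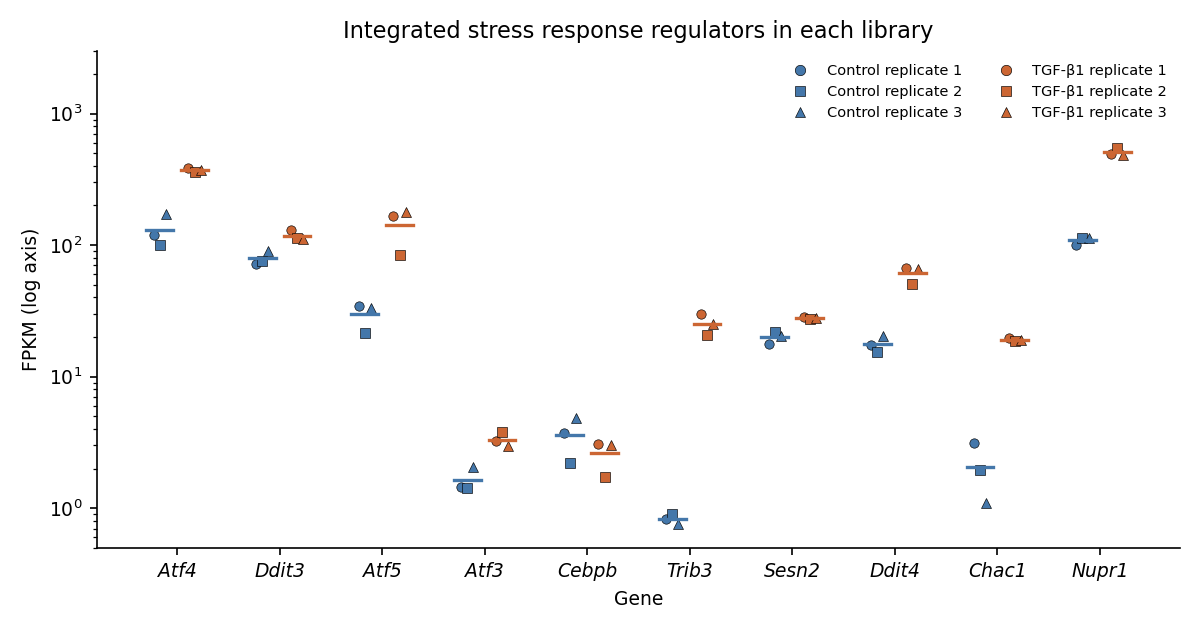
FPKM (log axis) of the 10 regulators in each library, with Control in blue, TGF-β1 in orange, the replicate number as the symbol and the group mean as a bar. The groups are separate in every gene except Cebpb, and Trib3 moves from under 1 FPKM to between 20.9 and 29.7 FPKM.

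**Figure D2:**
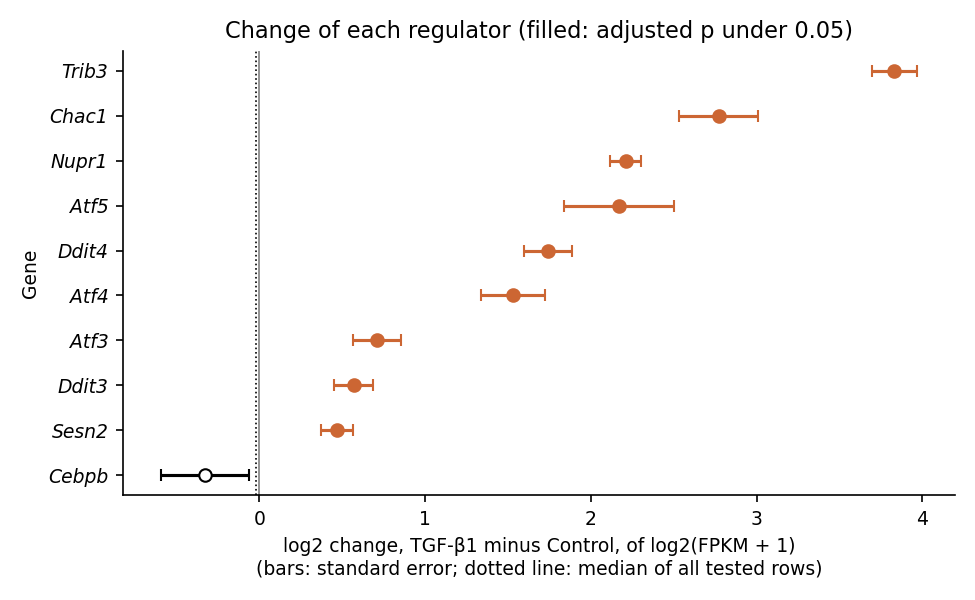
Log2 change of each regulator (TGF-β1 minus Control, on the log2(FPKM + 1) scale) with its standard error as a bar, where filled points have a limma adjusted p under 0.05. Trib3 is highest at 3.83, Cebpb is the open point at -0.33, and the dotted line is the median of all tested rows at -0.02.

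The promoters of the regulators were searched for the element that ATF4 and C/EBP dimers bind. The windows were those of RefSeq on build GRCm38.p6, running from 250 bases before to 50 bases after the annotated start of transcription, and each of the 10 genes had at least 1 window (11 in all, with 2 for Atf5). The C/EBP-ATF response element was written as TGATGNAAN and searched on both strands. It was present in 4 of the 10 genes, Chac1, Nupr1, Atf3 and Trib3, against 4.5% of the 27025 genes and 3.95% of the 32851 windows in that table. The cyclic AMP response element TGACGTCA, which CREB and ATF factors bind, was in 0 of the 10 genes and in 1.79% of all windows. A match describes the letters of the window and is neither a shown binding site nor a cause, and no match says only that these letters are absent there. The stretches before the start are shown for the 3 genes that hold the element there, on the strand of the gene, 5′ to 3′, with the element in capitals. In each of them the element reads as TGATGNAAN on the opposite strand, so the capitals are its reverse complement. The Chac1 stretch is chr2:119350992-119351241 (plus strand), that of Nupr1 is chr7:126625471-126625720 (minus strand) and that of Atf3 is chr1:191183334-191183583 (minus strand).
Chac1: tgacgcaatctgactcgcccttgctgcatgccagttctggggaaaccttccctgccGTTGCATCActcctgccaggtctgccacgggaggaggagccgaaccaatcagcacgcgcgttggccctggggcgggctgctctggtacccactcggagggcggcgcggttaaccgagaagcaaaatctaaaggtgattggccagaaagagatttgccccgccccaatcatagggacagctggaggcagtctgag
Nupr1: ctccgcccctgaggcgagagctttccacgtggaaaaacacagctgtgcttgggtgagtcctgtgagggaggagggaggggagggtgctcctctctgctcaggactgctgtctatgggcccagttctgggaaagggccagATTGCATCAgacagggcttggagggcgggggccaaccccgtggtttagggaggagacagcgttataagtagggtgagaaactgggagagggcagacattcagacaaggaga
Atf3: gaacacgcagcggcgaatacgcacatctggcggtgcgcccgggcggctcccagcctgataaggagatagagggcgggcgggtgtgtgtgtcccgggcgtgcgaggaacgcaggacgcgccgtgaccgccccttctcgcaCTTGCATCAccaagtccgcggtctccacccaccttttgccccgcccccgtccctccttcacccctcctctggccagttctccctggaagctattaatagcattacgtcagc

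The element lies 194 to 186 bases before the start in Chac1 and 111 to 103 bases before it in both Nupr1 and Atf3. In Trib3 it lies after the start, at bases 14 to 22 of the transcript, and is shown with 10 bases on each side (chr2:152344029-152344057, minus strand).
Trib3: ttagctcaggTTTACATCAgccgggcggg
Of the 6 genes with a rise of at least 1, Trib3, Chac1 and Nupr1 hold the element in this window, and Atf5, Ddit4 and Atf4 do not. Atf3 holds it and rose by less than 1.

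Atf4 encodes the transcription factor at the centre of the pathway (transcript ENSMUST00000109605, mm9 chr15:80085614-80087970, plus strand). Its level was 119.7, 101 and 171 FPKM in Control replicates 1 to 3 and 383, 357 and 369 FPKM in TGF-β1 replicates 1 to 3. The Control libraries differed from each other by more than the TGF-β1 libraries did, and the lowest treated library was well above the highest Control library. The mean rose from 130.4 ± 36.4 to 369.6 ± 13.3 FPKM (SD, n = 3 in each group), which is 2.83-fold, and the log2 change was 1.53 (SE 0.192, adjusted p = 0.00118 by limma). Its mRNA was already above 93.8% of tested rows in Control cells and above 97.6% of them with TGF-β1. Replicate 2 was the lowest library of both groups, and without it the log2 change was 1.39 (limma adjusted p = 0.0128).

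Ddit3 encodes CHOP, a bZIP factor induced by ATF4 and linked to cell death in prolonged stress (ENSMUST00000026475, mm9 chr10:126727830-126733344, plus strand). It measured 72.2, 75.4 and 90.6 FPKM in Control cells and 130.2, 113 and 111 FPKM with TGF-β1. The groups did not overlap, with replicate 3 the highest Control library and also the lowest treated one. The mean rose from 79.4 ± 9.85 to 118 ± 10.8 FPKM (SD, n = 3 each), with a log2 change of 0.57 (SE 0.117, adjusted p = 0.00878 by limma). This was among the smaller rises of the 9 genes, and without the libraries numbered 2 the change of 0.56 was not called (limma adjusted p = 0.0598). It was not called either with the libraries scaled to a common sum of coding rows (0.37, limma adjusted p = 0.0504). The exons of Ddit3 overlap those of Mars, the methionyl-tRNA synthetase gene on the opposite strand, by 68 bases or 7.64% of the Ddit3 transcript. Mars itself went from between 50.3 and 60.9 FPKM to between 95.0 and 102 FPKM, whether the authors' FPKM used strand is not stated, and its part in the Ddit3 value was not tested.

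Atf5 encodes a bZIP factor closely related to ATF4, also translated through upstream open reading frames and tied to the mitochondrial stress response (ENSMUST00000047356, mm9 chr7:52067627-52072028, minus strand). It measured 34.7, 21.6 and 33.5 FPKM in Control cells and 167, 83.6 and 179 FPKM with TGF-β1. Replicate 2 was the lowest library of both groups, and the lowest treated library was still above the highest Control library. The mean rose from 29.9 ± 7.21 to 143 ± 51.9 FPKM (SD, n = 3 each), which is 4.78-fold and a log2 change of 2.17 (SE 0.330, adjusted p = 0.00257 by limma). Without the libraries numbered 2 the log2 change was 2.31 (limma adjusted p = 0.00145). Exons of Nup62 and Il4i1 on the opposite strand share 82 bases, or 4.52%, with the Atf5 transcript.

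Atf3 encodes a stress-induced bZIP factor that often represses its targets (ENSMUST00000027941, mm9 chr1:192994175-193007219, minus strand). It was low in every library, at 1.45, 1.42 and 2.05 FPKM in Control cells and 3.22, 3.77 and 2.95 FPKM with TGF-β1. The treated libraries were all higher, at about 57.3 to 68.5 fragments against 28.1 to 39.5 in Control. Atf3 rose from a mean of 1.64 ± 0.355 to 3.31 ± 0.418 FPKM (SD, n = 3 each), a 2.02-fold difference and a log2 change of 0.71 (SE 0.142, adjusted p = 0.00747 by limma), and without the libraries numbered 2 the change of 0.58 was not called (limma adjusted p = 0.0565).

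Cebpb encodes C/EBPβ, a dimer partner of ATF4 and CHOP (ENSMUST00000070642, a single-exon gene at mm9 chr2:167514415-167515918, plus strand). It was the exception among the 10 genes. It measured 3.73, 2.22 and 4.83 FPKM in Control cells and 3.07, 1.74 and 3.04 FPKM with TGF-β1, so the groups overlapped. As in Atf4, Atf5 and Ddit4, replicate 2 was the lowest library of both groups. Cebpb and Atf5 had the highest GC content of the 10 transcripts (67.2% and 61.7%, against 52.2% to 58.7% in the others). Atf4 and Ddit4, with the same order of libraries, were at 54.1% and 57.6%. The part of GC content in these values was not tested. The means were 3.59 ± 1.31 and 2.62 ± 0.759 FPKM (SD, n = 3 each), and the log2 change of -0.33 (SE 0.265) did not pass the test (limma adjusted p = 0.350), nor did it in any of the 18 alternative fits (0.0785 to 0.715). Without the libraries numbered 2 the value was -0.37 (limma adjusted p = 0.128). The difference of the means was within the SD of the Control libraries, which held 32.3 to 68.2 fragments against 23.2 to 44.2 with TGF-β1. An exon of Tmem189 on the opposite strand shares 312 bases, or 20.7%, with the Cebpb transcript, and the part of such overlaps was not tested.

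Trib3 encodes a pseudokinase that binds ATF4 and CHOP and dampens the response as feedback (ENSMUST00000040312, mm9 chr2:152163158-152169768, minus strand). Its level was 0.826, 0.904 and 0.762 FPKM in Control cells and 29.7, 20.9 and 25.1 FPKM with TGF-β1. Control cells held about 15 to 18.4 fragments of it per library and treated cells 389 to 596. The rise of the mean from 0.830 ± 0.0711 to 25.2 ± 4.38 FPKM (SD, n = 3 each) was 30.4-fold, and the log2 change of 3.83 (SE 0.137, adjusted p = 1.25e-05 by limma) was the 30th highest of all tested rows. It moved from a level above 2.8% of tested rows to one above 69.6%. Trib3 passed the filter through its TGF-β1 libraries alone, and many low rows are outside the tested ones. Its ranks among tested rows therefore depend on the filter.

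Chac1 encodes an enzyme that degrades glutathione and is a sensitive ATF4 target (ENSMUST00000028780, mm9 chr2:119176965-119180117, plus strand). It measured 3.14, 1.95 and 1.10 FPKM in Control cells and 19.7, 18.7 and 18.9 FPKM with TGF-β1. The Control libraries were spread widely around a low level, at about 17 to 50.1 fragments, while the treated libraries were close to each other. Chac1 rose from a mean of 2.06 ± 1.02 to 19.1 ± 0.491 FPKM (SD, n = 3 each), 9.27-fold, with a log2 change of 2.77 (SE 0.238, adjusted p = 2.57e-04 by limma). Trib3 and Chac1, which were low in Control cells, had the highest log2 changes of the 10 genes.

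Sesn2 encodes sestrin 2, a leucine sensor that restrains the growth kinase complex mTORC1 (ENSMUST00000030724, mm9 chr4:132047947-132066416, minus strand). It measured 17.6, 21.8 and 20.4 FPKM in Control cells and 28.5, 27.6 and 27.9 FPKM with TGF-β1. All treated libraries lay within a narrow range above Control. The mean rose from 19.9 ± 2.14 to 28.0 ± 0.484 FPKM (SD, n = 3 each), 1.40-fold, with a log2 change of 0.47 (SE 0.095, adjusted p = 0.00760 by limma), the lowest of the 9 called genes. Scaled to a common sum of coding rows, Sesn2 was not called (0.29, limma adjusted p = 0.0729).

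Ddit4 encodes REDD1, which also restrains mTORC1 and is known as a target of hypoxia and glucocorticoids as well (ENSMUST00000020308, mm9 chr10:59412423-59414518, minus strand). It measured 17.3, 15.5 and 20.2 FPKM in Control cells and 66.6, 51.0 and 66.2 FPKM with TGF-β1. Replicate 2 was the lowest of both groups, with no overlap between them. Ddit4 rose from a mean of 17.6 ± 2.37 to 61.3 ± 8.91 FPKM (SD, n = 3 each), 3.47-fold, with a log2 change of 1.74 (SE 0.145, adjusted p = 2.32e-04 by limma), and without the libraries numbered 2 it was 1.78 (limma adjusted p = 0.00286). Both restraints on mTORC1 among the 10 genes were thus higher with TGF-β1.

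Nupr1 encodes a small chromatin-associated stress protein (ENSMUST00000032961, mm9 chr7:133766763-133770524, minus strand). It measured 99.3, 113 and 114 FPKM in Control cells and 491, 544 and 486 FPKM with TGF-β1. Its libraries agreed closely within each group, and the treated range was far from that of Control. Nupr1 rose from a mean of 109 ± 8.38 to 507 ± 31.9 FPKM (SD, n = 3 each), 4.65-fold, with a log2 change of 2.21 (SE 0.094, adjusted p = 2.30e-05 by limma). With TGF-β1 it was above 98.1% of tested rows.

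The order of the levels differed between the groups. In Control cells Atf4 and Nupr1 led with overlapping ranges, Ddit3 followed, then Atf5, Sesn2 and Ddit4, each overlapping its neighbour, then Cebpb, Chac1 and Atf3, again overlapping, and Trib3 was last. With TGF-β1 Nupr1 was above Atf4, Atf4 was above Atf5 and Ddit3, whose ranges overlapped, and Ddit4 came next. Sesn2 and Trib3 followed with overlapping ranges, then Chac1, and Atf3 and Cebpb overlapped at the bottom. Trib3 was below Chac1, Atf3 and Cebpb in Control cells and above all of them with TGF-β1.

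The ratio of each gene to Atf4 within a library does not depend on how libraries are scaled. Relative to Atf4, Trib3 was at -7.16, -6.78 and -7.79 on the log2 scale in Control replicates 1 to 3 and at -3.69, -4.09 and -3.88 with TGF-β1, a difference of 3.36. Chac1 differed by 1.79 and Nupr1 by 0.68, with every treated library above every Control library. In these libraries Trib3, Chac1 and Nupr1 were thus higher relative to Atf4 after treatment. Ddit3 went the other way, from between -0.92 and -0.42 to between -1.74 and -1.56, a difference of -0.97. The ratio of Sesn2 differed by -1.04, that of Atf3 by -0.51 and that of Cebpb by -1.97, again without overlap. The exact two-sided permutation p was 0.1 for these 7 ratios, the smallest that 3 against 3 libraries allow, and 0.129 adjusted over the 9 ratios, so none could pass 0.05. Atf5 (difference 0.67, exact p = 0.2) and Ddit4 (0.25, exact p = 0.3) overlapped between the groups. Atf4 itself rose by 1.53 on the log2 scale, against a median of -0.02 over all tested rows. A gene without a change thus also falls relative to Atf4, and a lower ratio is not particular to these regulators. The share of all tested rows whose ratio to Atf4 does not overlap was not counted.

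**Figure D3:**
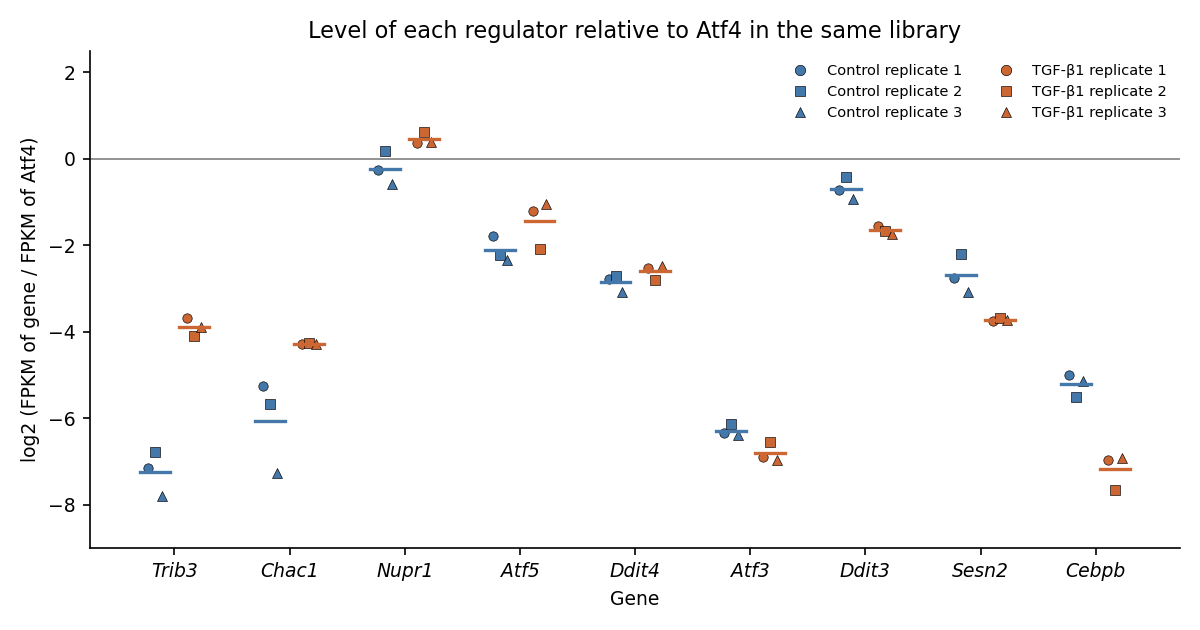
Log2 ratio of the FPKM of each regulator to that of Atf4 in the same library, by group, with the replicate number as the symbol and the group mean as a bar. Trib3, Chac1 and Nupr1 sit higher with TGF-β1, Atf3, Ddit3, Sesn2 and Cebpb sit lower, and Atf5 and Ddit4 overlap.

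Upstream of ATF4, the genes for the eIF2α kinases, the eIF2α phosphatase subunits and the exchange factor eIF2B were examined as a list. Of 14 genes tested, 5 were called higher and 0 lower, with a median log2 change of 0.21 against -0.02 over all tested rows. Among all tested rows 48.1% were called in either direction and 24.5% were called higher. Calls in either direction were thus not more frequent in this list than among all rows, and all 5 were rises. With the libraries scaled to a common sum of coding rows, 4 were called higher and 2 lower. Eif2ak3, which encodes PERK, the kinase of the endoplasmic reticulum, had a mean of 6.46 ± 0.701 FPKM in Control and 14.8 ± 0.767 FPKM in treated cells (log2 change 1.09, limma adjusted p = 3.22e-04). Eif2ak4, which encodes GCN2, the kinase that senses uncharged tRNA, measured 4.40, 4.43 and 4.63 FPKM in Control cells and 4.79, 4.88 and 3.84 FPKM with TGF-β1 and did not pass the test (limma adjusted p = 0.997). Ppp1r15a, the inducible phosphatase subunit GADD34 that reverses eIF2α phosphorylation, rose from 45.1 ± 2.25 to 104 ± 2.54 FPKM (1.19, adjusted p = 7.74e-05 by limma). The genes of the other kinases, Eif2ak1 and Eif2ak2, measured 19.2 and 16.1 FPKM and 14.7 and 12.8 FPKM in Control and treated cells and were not called. These are mRNA levels, and the phosphorylation of eIF2α was not measured here.

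Downstream of ATF4, genes for amino acid synthesis, transport and tRNA charging that are known targets were called higher in 25 of the 27 tested and lower in 0, with a median log2 change of 1.34. Among all tested rows 24.5% were called higher and 23.6% lower. Asns, asparagine synthetase, rose from 28.2 ± 3.64 to 148 ± 11.4 FPKM (2.35, limma adjusted p = 3.78e-05). Aldh1l2 and Mthfd2, enzymes of mitochondrial folate metabolism, rose by 2.99 and 2.68 on the log2 scale. Slc7a11, the cystine transporter, was not called at 3.18 ± 0.505 and 2.29 ± 0.174 FPKM (limma adjusted p = 0.0679), and neither was Slc38a2, a neutral amino acid transporter, at 54.9 ± 8.05 and 58.2 ± 5.62 FPKM. Of 13 stress and feedback targets tested, 11 were called higher and 1 lower, with a median of 0.89. Fgf21, a secreted metabolic hormone, went from at most 0.247 FPKM in Control, with 2 libraries listed at 0, to between 2.98 and 6.36 FPKM, and Vegfa, the endothelial growth factor, rose by 1.76. Stc2, a secreted glycoprotein, fell by 1.21 on the log2 scale. Gdf15, a secreted stress cytokine named after its values were seen, measured 28.5, 0.419 and 32.8 FPKM in TGF-β1 replicates 1 to 3 and 20.1, 5.66 and 15.5 FPKM in Control, with replicate 2 lowest in both groups.

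The element TGATGNAAN shown above for Chac1, Nupr1, Atf3 and Trib3 was also in the windows of 8 of the 20 amino acid targets that had one, Asns among them, in 4 of 10 stress and feedback targets and in 0 of 15 genes of the list of endoplasmic reticulum chaperones and ATF6 or IRE1 targets. Over all genes with a window the share was 4.5%, so 0 of 15 is near it. The element was likewise in 0 of 12 p53 targets, 0 of 13 hypoxia targets and 1 of 21 mTORC1 genes. The chaperones and other targets of ATF6 and IRE1, the arms of the unfolded protein response that do not run through eIF2α, were called higher in 16 of 18 tested and lower in 0, with a median of 0.72. The share called higher among all tested rows was 24.5%. Hspa5, the chaperone BiP, rose from 120.4 ± 3.95 to 280.3 ± 1.63 FPKM (1.21, limma adjusted p = 6.15e-05), and Xbp1, the transcription factor spliced by IRE1, rose by 1.17. The median of the 10 regulators, 1.63, stood above the medians of the amino acid, feedback and chaperone lists, which is a description with no test.

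**Figure D4:**
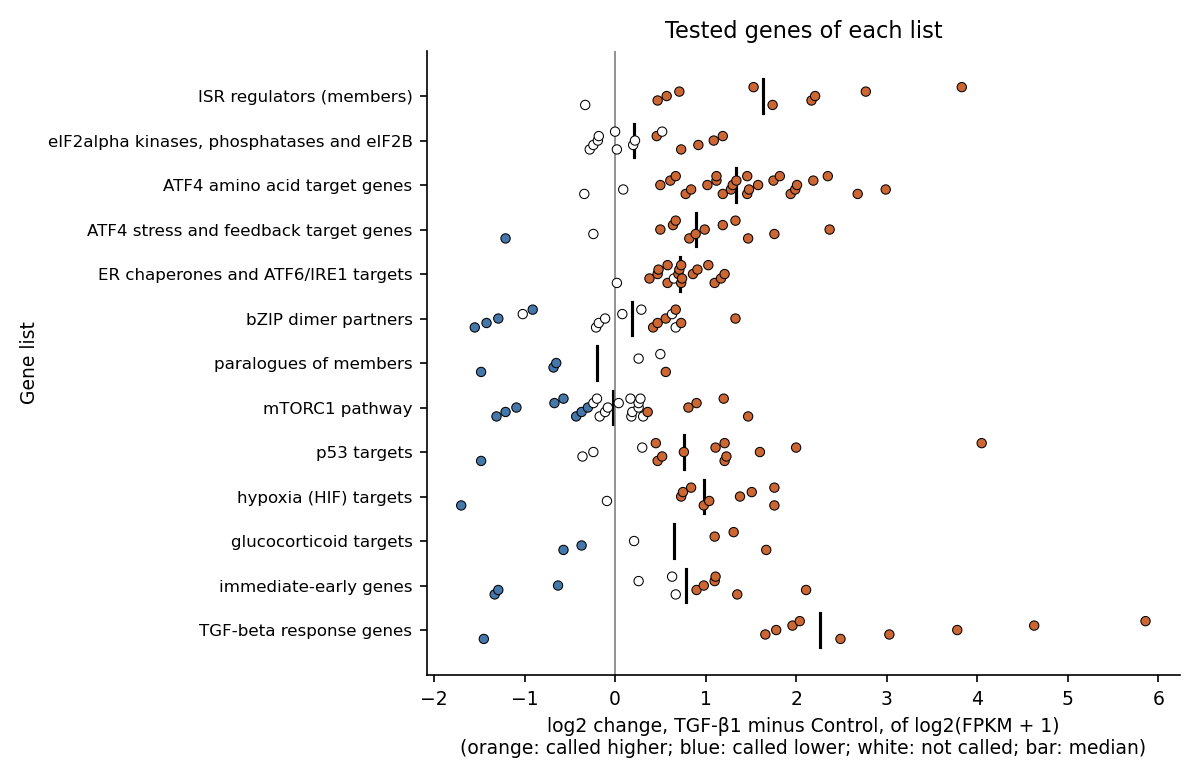
Log2 change (TGF-β1 minus Control) of every tested gene of the 10 regulators and of 12 further gene lists, with orange for called higher, blue for called lower, white for not called and a bar at the median. The regulators have a median of 1.63, the amino acid targets of 1.34 and the mTORC1 pathway genes of -0.02.

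ATF4, CHOP, ATF3, ATF5 and C/EBPβ act as dimers, so the other bZIP factors were examined as a list. Of 18 tested, 6 were called higher and 4 lower, with a median of 0.19, beside 24.5% called higher and 23.6% called lower among all tested rows, so these counts are near the background. Cebpg, whose product pairs with ATF4, rose from 5.63 ± 0.721 to 15.8 ± 3.12 FPKM (1.33, limma adjusted p = 9.53e-04), and Atf6, the membrane-bound factor of the endoplasmic reticulum, rose by 0.73. Maf, a large bZIP factor, fell by 1.55 on the log2 scale. Atf7, also among the 4 called lower, had several rows, and the row with the higher mean was used. Cebpg thus rose in the same libraries in which Cebpb was not called.

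Of 6 tested paralogues of the regulators, genes of the same families, 1 was called higher and 3 lower, with a median of -0.19. Over all tested rows 24.5% were called higher and 23.6% lower. In the Tribbles family, Trib1 measured 6.46, 7.03 and 7.38 FPKM in Control cells and 4.28, 4.21 and 3.73 FPKM with TGF-β1, and fell by 0.65 on the log2 scale (limma adjusted p = 0.00217). Trib2 fell by 0.68, from 2.09 ± 0.169 to 0.929 ± 0.0672 FPKM, while Trib3 rose. Among the sestrins, Sesn1, known as a target of p53 and FoxO factors, measured 29.5, 28.7 and 23.9 FPKM in Control cells and 8.46, 9.55 and 9.34 FPKM with TGF-β1, a fall by 1.48 (limma adjusted p = 1.36e-04). Sesn1 was above Sesn2 in every Control library and below it in every treated library. Sesn3 rose by 0.56. Chac2, the constitutive relative of Chac1, measured 4.02 ± 0.168 and 6.22 ± 1.61 FPKM and did not pass the test (limma adjusted p = 0.0581), and Ddit4l measured 13.9 ± 1.36 and 16.9 ± 1.84 FPKM and did not pass it either.

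**Figure D5:**
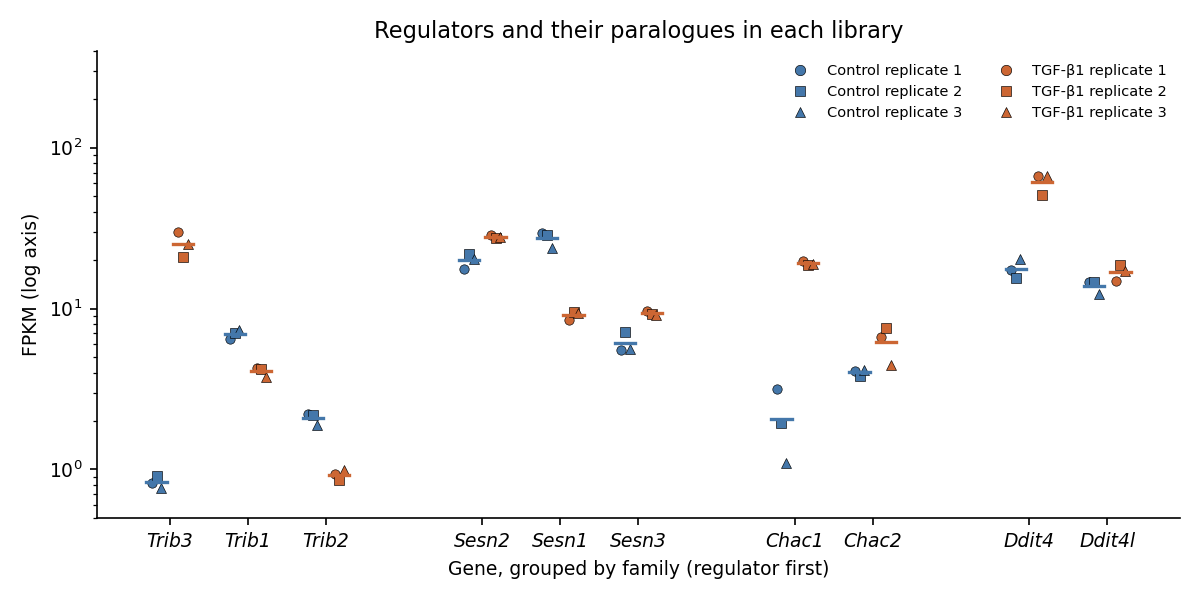
FPKM (log axis) of Trib3, Sesn2, Chac1 and Ddit4 and of their paralogues in each library, by group, with the replicate number as the symbol and the group mean as a bar. Trib1, Trib2 and Sesn1 are lower with TGF-β1 in every library, opposite to Trib3 and Sesn2.

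Sesn2 and Ddit4 act on mTORC1, and the genes of that pathway were examined as a list. Of 26 tested, 5 were called higher and 8 lower, with a median of -0.02, which is close to the share of 48.1% called and the median of -0.02 over all tested rows. Eif4ebp1, a translation repressor that mTORC1 inactivates and ATF4 induces, rose from 114 ± 18.5 to 317 ± 24.4 FPKM (1.47, adjusted p = 3.26e-04 in limma), and Sec13 rose by 1.20. Rragb, a Rag GTPase that recruits mTORC1 to lysosomes, and Deptor, an inhibitor within the complex, fell by 1.31 and 1.21 on the log2 scale.

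Across the 6 libraries the genes most like Atf4 by Pearson's r of log2(FPKM + 1) were Rad23b (0.9982), Polr3d (0.9981), Cyr61 (0.9979), Aasdhppt (0.9978) and Snx4 (0.9971). Each of these shares with Atf4 both the difference between the groups and the high Control replicate 3, and 15.6% of the compared rows reached 0.9. Among the other regulators r with Atf4 was highest for Ddit4 (0.9804) and Atf3 (0.9693), lowest among the called genes for Sesn2 (0.8917), and -0.2376 for Cebpb. The points share their libraries and fall into the treatment groups, so these are descriptions with no test.

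Known TGF-β responses moved in the treated libraries, with 9 of 10 genes called higher and 1 lower, against 24.5% and 23.6% of all tested rows. Ctgf, a matrix-associated growth factor, rose from 48.2 ± 19.4 to 1154 ± 152 FPKM. Of the 5 mesangial markers tested, 3 were called higher (Acta2, Tagln and Vim), Pdgfrb was called lower (37.5 to 29.2 FPKM, limma adjusted p = 0.0396) and Gata3 was not called, while Pdgfra, Itga8, Des and Thy1 of the 10 listed were under 1 FPKM in every library. Markers of other kidney cells moved with the treatment too. The summed level of 10 tubular epithelial markers went from between 126 and 161 FPKM in Control to between 9.06 and 11.1 FPKM, carried by Cdh16, while Cdh1, Krt8 and the segment markers Aqp2, Slc12a1 and Slc12a3 were under 1 FPKM in every library. Aqp1 fell from a mean of 10.4 to 0.169 FPKM and Lrp2 from 1.43 to 0.230 FPKM. Cubn (0.636 to 1.28 FPKM) and Krt18 (0.279 to 1.57 FPKM) rose. The summed level of 7 macrophage markers went from between 87.0 and 114 FPKM to between 9.03 and 11.9 FPKM, carried by Cd14, with Ptprc, Itgam, Lyz2 and Aif1 under 1. Csf1r fell from a mean of 6.27 to 0.411 FPKM, and Cd68 was not called. All 6 endothelial markers with a row were under 1 FPKM in every library. The tubular and macrophage sums were lower with TGF-β1 while the regulators were higher, and their part in the changes of the regulators was not tested.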

How the data were processed

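RNA-Seq was performed on 3 Control and 3 TGF-β1-treated samples of mouse primary mesangial cells. The authors discarded reads of low quality, aligned the others to mm9 using TopHat, and took FPKM from Cufflinks (the submitters' processing notes list TopHat2 2.0.11). The deposited table holds an FPKM column for each library, and scaling between libraries is not mentioned. The authors' own test ran on read counts in DESeq, and counts were not used here. Each row names 1 transcript, and it is not stated whether its value is that of the gene, which matters for the 6 regulators with several annotated transcripts. It matters for genes of the other lists too. The rows of Ppp1r15a and Hspa5 name short transcripts (389 and 547 nt) that are annotated as processed transcripts and not as protein-coding.

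Groups came from the sample labels. log2(FPKM + 1) was fitted with limma 3.58.1 in R 4.3.3 (lmFit, eBayes with trend, two-sided, Benjamini-Hochberg) over rows whose mean FPKM reached 1, and ratios to Atf4 (0.01 added) were compared by exact permutation. The fit was tested on simulated data before use. Depth came from rows under 0.3 FPKM with 1 annotated transcript of at least 500 nt, of which 99.5% to 99.9% were whole fragments within 0.05, and covers counting error only. Genes came from the mm9 annotation, promoters from RefSeq GRCm38.p6.

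The 18 gene lists, the 10 regulators among them, were chosen with earlier results of these data known. Where a symbol had several rows, the row with the higher mean was used. Some genes stand in several lists, Cebpg, Jdp2, Atf6, Vegfa, Acta2 and Tagln among them. All regulators are named. From the other lists, the 2 highest rises and 2 deepest falls among called genes could be named, with a few reference genes (Ppp1r15a, Eif2ak3, Eif2ak4, Asns, Hspa5, Cebpg, Trib1, Sesn1), and the 5 rows with the highest r with Atf4. Other genes named were chosen after their values were seen. A few listed genes and 1 list of markers are not reported here. The alternatives changed the pseudocount, the filter, the scaling, the variance model, the block and the libraries. Other steps used scipy 1.17.1, pandas 2.3.3 and numpy 2.4.6 in Python 3.11.15, with matplotlib 3.10.9 for plots.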

Additional observations from a re-analysis of the deposited data

How the results depend on the processing

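The number of regulators called higher was 9 in 15 of the 18 alternative fits, including all 6 that left out 1 library (range 9 to 9), and 0 were called lower in any. It was 8 of 9 with a mean FPKM of at least 3, which removes Atf3. It was 7 with libraries scaled to a common sum of coding rows, where Ddit3 (0.37, limma adjusted p = 0.0504) and Sesn2 (0.29, 0.0729) were not called. That scaling moved the median of all tested rows to -0.1878 and turned 2911 higher and 2810 lower calls into 2003 and 3924. It was 7 also with replicates 1 and 3 alone, where Ddit3 and Atf3 were not called, with 4 libraries in the fit. Atf4, Trib3, Chac1, Atf5, Nupr1 and Ddit4 were called in all 18. Deviations from the group mean had an r of 0.092, 0.232 and 0.085 between libraries of the same replicate number. Between libraries of different numbers r was -0.194 to 0.117, and whether the numbers pair the libraries is not stated. With the number as a replicate block 9 regulators were called, with limma adjusted p = 0.0258 for Ddit3 and 0.0986 for Cebpb. Without the filter on low values, 6 tubular epithelial markers (3 higher and 3 lower) were called in place of 2, and 1 endothelial marker in place of 0. With replicates 1 and 3 alone, calls in either direction went from 16 to 12 in the chaperone list and from 13 to 9 in the mTORC1 list. They went from 12 to 10 among p53 targets and from 10 to 8 among hypoxia targets. Among bZIP factors they went up from 10 to 12 and among immediate-early genes from 9 to 11. Scaling to a common sum of coding rows turned 6 higher and 4 lower bZIP factors into 4 and 6. Calls of a rise went from 16 to 12 in the chaperone list and from 11 to 8 among p53 targets. They stayed at 25 among amino acid targets. No ratio to Atf4 changed direction. With 3 libraries per group, and at most 68.5 fragments per library for Atf3 and Cebpb, small changes could not be detected.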

Other observations

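Other pathways were examined as lists, and none of these lists holds a regulator. Beside their counts stand the shares over all tested rows, 24.5% called higher and 23.6% called lower. Of 15 p53 targets tested, 11 were called higher and 1, Sesn1, lower, with a median log2 change of 0.76. Pmaip1, a cell death gene that ATF4 also induces, went up from 19.6 ± 2.45 to 339 ± 8.71 FPKM (4.05 on the log2 scale, limma adjusted p = 4.68e-06), and Plk2, a polo-like kinase, rose from 41.2 ± 6.18 to 167 ± 5.31 FPKM. Of 11 hypoxia targets, which overlap with the known inputs of Ddit4, 9 were called higher and 1, Ndrg1, fell by 1.70 on the log2 scale, with a median of 0.98. Pgk1, a glycolytic enzyme, rose by 1.76.

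Of 6 glucocorticoid targets tested, 3 were called higher and 2 lower, beside 24.5% and 23.6% of all tested rows. Fkbp5, a cochaperone of the glucocorticoid receptor, rose from 1.12 ± 0.206 to 5.75 ± 0.649 FPKM (1.67, limma adjusted p = 1.76e-04), while Tsc22d3 fell by 0.57. Of 12 immediate-early genes, 6 were called higher and 3 lower. Myc, a growth regulator, rose by 2.11 and Ier3 by 1.35, while Egr1 and Fos fell by 1.33 and 1.29 on the log2 scale. Ddit4 rose in the same libraries, and these lists were not tested against it.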
